A study of Caenorhabditis elegans with 2 samples.

Results

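Autosomal candidate regions with a summit in an exon of a protein-coding gene were examined in a ChIP-seq experiment on HPL-2 in Caenorhabditis elegans, in which DNA that precipitates with a protein is sequenced. The deposited pooled list holds 30000 candidate regions on the build ce11, ranked by the caller's signal, an enrichment value per region. A region was a member if it lay on an autosome and was absent from the deposited thresholded list. Its summit also had to be more than 500 bp from every annotated 5′ end of a protein-coding transcript and inside an exon of a protein-coding gene. The rule was met by 3689 of the 30000 regions, out of 23817 autosomal candidates below the threshold. The members were thus chosen by measured values, since the thresholded list is the strongest part of the pooled list by the same signal. Their signal ran from 7.88 to 36.7 with a median of 10.8, and the nearest annotated 5′ end was a median of 1370 bp away.

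The study has 2 libraries, biological replicates 1 and 3, of 1 group of whole, starved L1 larvae of mixed sex, collected after bleaching. Per the labels, all animals were of the strain YL474, which carries lin-35(n745), unc-119(ed3) and the array vrIs64. On the array, HPL-2 with a GFP and FLAG tag is driven by the ges-1 promoter, which is active in the intestine, with unc-119(+) as its marker. Both libraries therefore share the lin-35 allele, and no wild-type, untagged or input library was analysed here. The labels name the tagged protein as the target in their description and hpl-2 in their antibody entry, so the antigen is not settled by them. No gene expression was measured, so the intestinal origin of the chromatin could not be checked against marker genes. The lists hold no read counts, and the depth of either library is unknown.

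HPL-2 is a worm homologue of heterochromatin protein HP1, whose chromodomain binds histone H3 methylated on lysine 9. In C. elegans it is known as a repressor of repeats and germline genes and as a synMuv B protein that acts with the Rb homologue LIN-35. Regions bound by HP1 proteins are usually described at repeats, at silent genes and, in worms, also at promoters.

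Protein-coding sequence under the summit is shown for 6 of the stronger coding members listed in both libraries whose window lies inside 1 coding exon, 3 of them in ret-1 because that gene held the most members. Each line gives 30 bases of the gene's strand, in frame, from the RefSeq copy of WBcel235 (ce11), with the codon that holds the summit in capitals.
ret-1, chrV:14841684-14841713, minus strand: gaatcgactggaGAAgacgaggatattttc
ret-1, chrV:14842413-14842442, minus strand: gaaattagagaaAATgaaacaatttctcag
ret-1, chrV:14844666-14844695, minus strand: gttcaaagagaaACGattgggcttgaggat
coa-7, chrII:11649385-11649414, minus strand: ggcagtctgtcaCGTgatatggacaaaagc
cah-1, chrIII:5083442-5083471, minus strand: ctcacttctcctGGAtgccatgagactgtc
oac-57, chrIV:12306141-12306170, minus strand: agccttgacgggGTGacgcctaatatgtct
The GC content of these windows ran from 26.7% to 53.3%, and the 3 ret-1 windows alone spanned 26.7% to 43.3%.

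Exons held fewer candidates than the other places, and the shortfall lay in coding sequence. Exons outside gene starts made up 17.6 Mb, or 21.3% of the autosomal sequence, and held 15.5% of the autosomal candidates below the threshold. That is 210 candidates per Mb, against 275 in introns, 281 between genes and 382 within 500 bp of a 5′ end. In replicate 1 the exon density was 222 per Mb and in replicate 3 it was 222 per Mb, where each library's own list was used without as many of its strongest regions as the thresholded list holds. The intron densities were 269 and 284 per Mb in the same libraries, so exons lay below introns in both.

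Within exons, the 3′ UTRs and the coding sequence differed. Coding sequence made up 86.6% of the exon sequence and held 2714 members, 73.6% of them, which is 179 per Mb. Annotated 3′ UTRs made up 11.9% and held 890 members, or 424 per Mb. The remaining 60 members lay in 5′ UTRs and 25 in other exons. The 3′ UTR density was thus 2.38 times the coding density in the pooled list. Replicate 1 had 380 candidates per Mb of 3′ UTR and 199 per Mb of coding sequence, a ratio of 1.91. Replicate 3 had 387 and 197 per Mb, a ratio of 1.96. The coding density was 198 ± 1.16 per Mb and the 3′ UTR density 384 ± 5.39 per Mb (SD, n = 2), so the difference was larger than the spread between the libraries. An exact sign-flip test over 2 libraries (two-sided) cannot give a p below 0.5, which is the value it gave for this difference and for that between exons and introns. The 3′ UTR density was close to that at gene starts, which was 376 per Mb in replicate 1 and 373 in replicate 3.

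**Figure D1:**
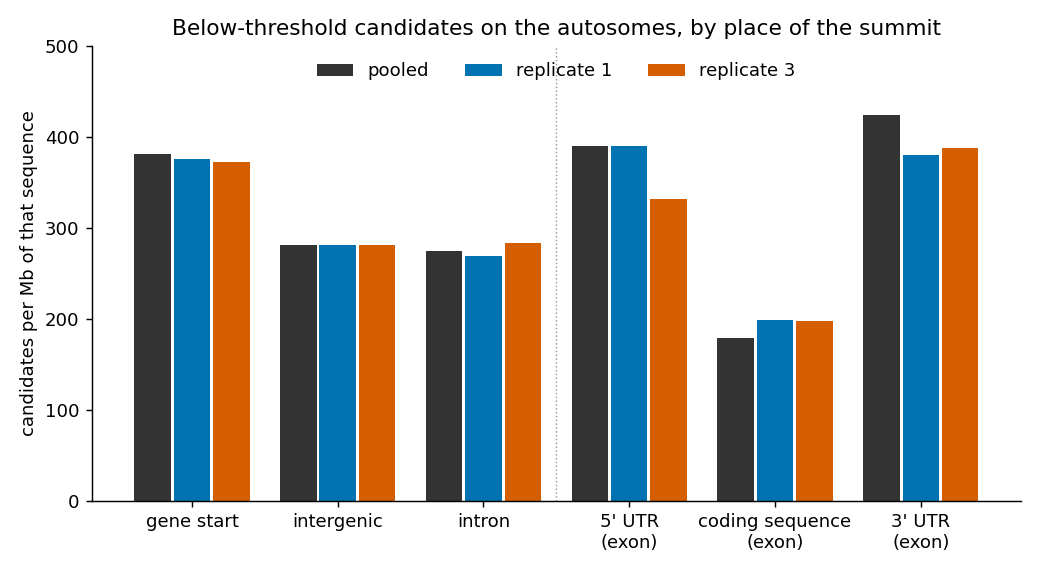
Candidates below the threshold per Mb of autosomal sequence (y axis) by the place of the summit (x axis), with a bar for the pooled list and for each library. Coding sequence is the lowest class at 179 per Mb in the pooled list, and 3′ UTRs at 424 per Mb stand beside gene starts at 382 per Mb.

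The share of 3′ UTRs among exon summits grew with signal. Among the pooled ranks 24001 to 30000, 177 of 879 autosomal exon summits lay in 3′ UTRs, or 20.1% (Wilson 95% interval 17.6 to 22.9%). At ranks 3001 to 6000 the share was 32.3% (93 of 288), and between the threshold and rank 3000 it was 43.4% (59 of 136, interval 35.3 to 51.8%). The density ratio of 3′ UTR to coding sequence rose over these tiers from 1.88 to 3.74 and 6.11. Among the 17 autosomal exon regions above the threshold, 9 lay in 3′ UTRs and 7 in coding sequence. In replicate 1 the ratio was 1.64 at ranks 24001 to 30000, 3.02 at ranks 3001 to 6000 and 3.50 between its strongest regions and rank 3000. In replicate 3 the same tiers gave 1.81, 4.07 and 4.41. The ratio was therefore higher in the strong tiers than in the weak ones in each library, although in replicate 3 its lowest value, 1.38, stood at ranks 12001 to 18000. Exons as a whole went the other way, with 7.68% of autosomal candidates between the threshold and rank 3000 and 17.8% at ranks 24001 to 30000. These intervals cover counting error only.

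**Figure D2:**
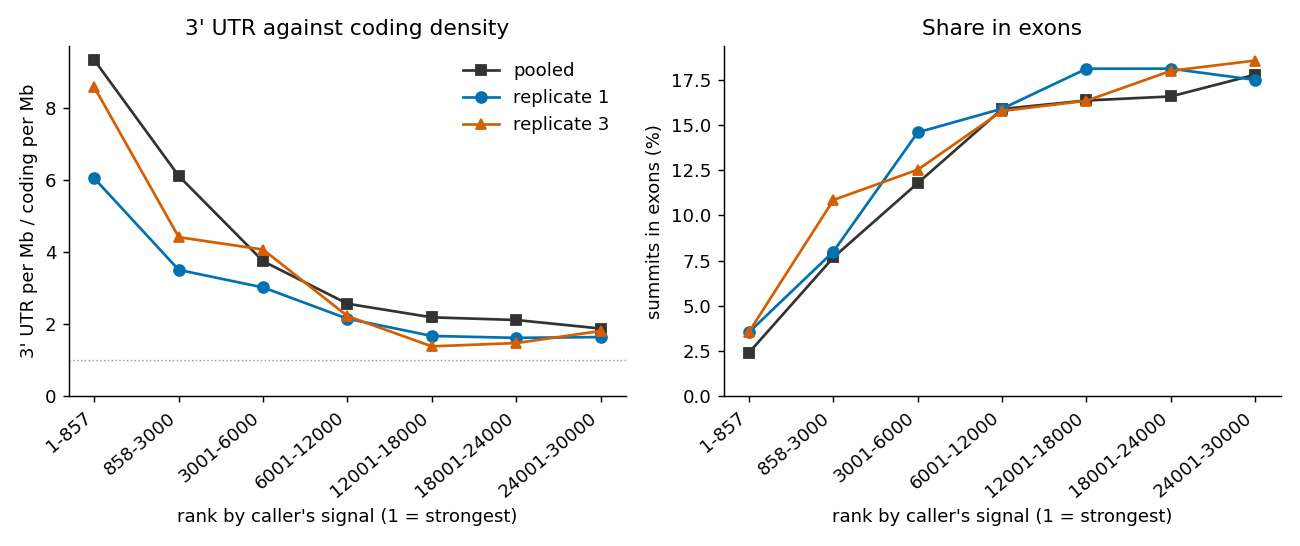
Left, candidates per Mb of 3′ UTR divided by candidates per Mb of coding sequence (y axis), and right, exon summits as a percentage of autosomal candidates (y axis), by rank of the caller's signal in each list (x axis, strongest at the left, thresholded regions included). In the pooled list the ratio is 9.32 for the thresholded regions, 6.11 from there to rank 3000 and 1.88 at ranks 24001 to 30000, while the exon share rises from 2.41% to 7.68% and 17.8%.

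Overlap with the libraries' own candidates followed the same order. It is not separate from the signal, since the pooled list comes from the same 2 libraries. A region of both libraries overlapped 1075 of the 3689 members (29.1%, Wilson 95% interval 27.7 to 30.6%), against 36.3% of all autosomal candidates below the threshold. The share was 25.9% of coding members (703) and 38.1% of 3′ UTR members (339). It rose with pooled signal, to 47.2% of members at the stronger ranks up to the middle of the pooled list. The share of all autosomal candidates at those ranks is not given here, so this value has no background beside it. Members in 3′ UTRs had a median pooled signal of 11.3, against 10.6 for coding members. How far signal alone accounts for the difference in overlap was not tested. A candidate in the strongest 25% of both libraries was found for 178 members, or 4.83%, against a background of 8.44%. That was the case for 88 coding members (3.24%) and 81 members in 3′ UTRs (9.10%). The coding members thus lay below the background on both counts, and the 3′ UTR members close to it, with the background inside their Wilson intervals (34.96 to 41.3% and 7.38 to 11.2%). Replicate 1 alone supported 1760 members (47.7%) and replicate 3 alone 518 (14.04%), while 336 members (9.11%) overlapped no candidate of either library. Over all autosomal candidates below the threshold these shares were 42.02%, 13.25% and 8.45%. Overlaps of 1 bp counted, and neighbouring members can share 1 library candidate.

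The caller's q-values are given as a description. The median −log10 q-value of the members was 0.21 in the authors' deposited list, and 246 members (6.67%) had a q-value of at most 0.05, against 11.7% of all autosomal candidates below the threshold. The q-value comes from the same contrast as the signal that chose the members, so nothing was read from this count. At the upper limit, the strongest members were adh-1 with a signal of 36.7 at rank 915 and F53B2.5 with 36.6 at rank 924. The weakest exon regions above the threshold were nspg-11 with 39.4 at rank 793 and arrd-6 with 40.4 at rank 742.

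The rise at 3′ UTRs continued past the end of the gene. Around the annotated 3′ ends of autosomal protein-coding genes, with sequence within 500 bp of any 5′ end left out, the pooled list held 229 candidates per Mb between 1500 and 800 bp inside the gene. The density was 314 per Mb over the last 300 bp of the gene and 423 per Mb over the 300 bp downstream of it. It was back at 234 per Mb between 800 and 1500 bp downstream. Replicate 1 gave 233, 307, 406 and 243 per Mb for these windows. Replicate 3 gave 229, 312, 402 and 237 per Mb. Among these windows the highest density therefore stood just downstream of the annotated 3′ end in every list. The windows inside the gene mix 3′ UTRs with other sequence, and those downstream can hold exons of neighbouring genes. Annotated 3′ UTRs alone held 424 candidates per Mb in the pooled list, so a maximum beyond the exons is not shown.

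**Figure D3:**
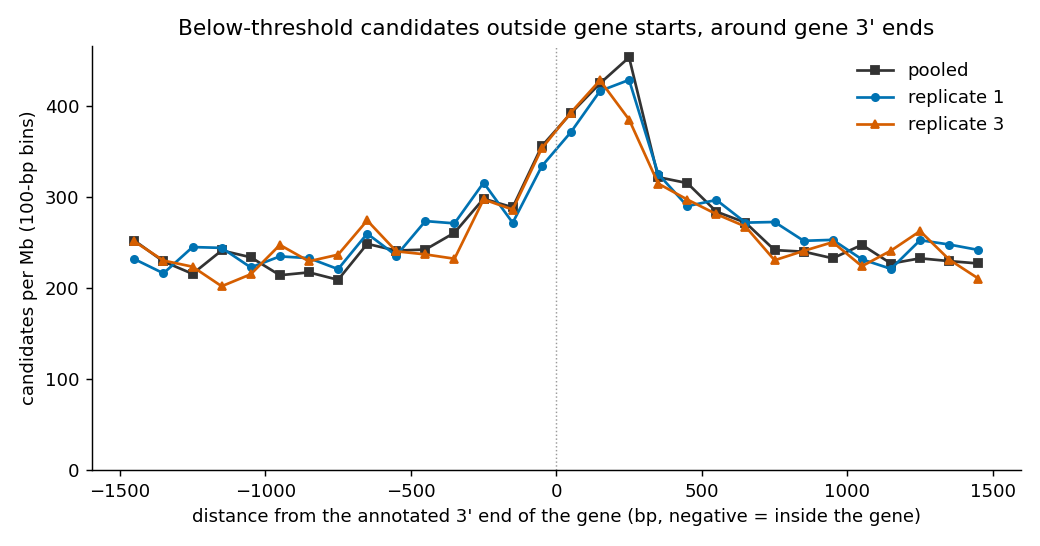
Candidates per Mb in bins of 100 bp (y axis) by distance from the annotated 3′ end of autosomal protein-coding genes (x axis, negative values inside the gene), for the pooled list and each library, with gene starts left out. All lines rise to a maximum within 300 bp downstream, where the pooled density over 300 bp is 423 per Mb, from about 229 per Mb farther inside the gene.

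The next gene's orientation was compared because worm genes lie close together. In the pooled list the 3′ UTRs of genes facing a convergent neighbour held 450 candidates per Mb and those followed by a gene on the same strand 409 per Mb. The values were 409 and 363 per Mb in replicate 1 but 387 and 386 per Mb in replicate 3, so hardly any difference was left in replicate 3. The ratio of 3′ UTR to coding density was also taken by distance from the nearest 5′ end. Over 7 bins of that distance, from 500 bp to beyond 5000 bp, the pooled ratio ran from 2.01 to 4.25. It ran from 1.63 to 2.82 in replicate 1 and from 1.72 to 3.24 in replicate 3.

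Base composition moved with coding density. Coding summits lay in sequence with a mean GC content of 38.6% within 100 bp, against 40.1% for all coding sequence outside gene starts. The 3′ UTR summits averaged 32.8%, against 32.5% for all 3′ UTRs. From 25 to 30% GC up to more than 50% GC the coding density dropped from 246 to 84.7 per Mb in the pooled list, from 212 to 95.1 in replicate 1 and from 251 to 117 in replicate 3. In replicate 1 the coding density first rose to 232 per Mb at 30 to 35% GC. Introns in the same classes went from 283 to 221 per Mb in the pooled list and from 309 to 211 in replicate 3. In replicate 1 introns began at 255 and stood at 292, 279, 278 and 284 per Mb in the classes from 30 to 50% GC. Above 50% they were at 224 per Mb (85 candidates), so no steady decline was seen in introns of replicate 1. By GC class, the pooled ratio of 3′ UTR to coding density was 1.73 at 25 to 30%, 1.86 at 30 to 35%, 2.39 at 35 to 40% and 2.75 at 40 to 45%. In these 4 classes the ratio ran from 1.56 to 2.27 in replicate 1 and from 1.45 to 1.92 in replicate 3. Below 25% GC, where coding sequence held 6 members, the pooled ratio was 0.79, with 1.07 in replicate 1 and 0.81 in replicate 3. At 45 to 50% GC, where 3′ UTRs held 9 members, it was 2.14, 1.80 and 2.37. Above 50%, where they held 1, the ratio was 1.55 in the pooled list, 0 in replicate 1 and 4.50 in replicate 3. Whether mappability or amplification by GC content acts on these densities was not tested.

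Coding density also declined with distance from the exon's edge, whereas 3′ UTR density did not. Coding summits stood at 213 per Mb within 25 bp of an edge, 148 per Mb at 200 to 400 bp and 69.8 per Mb beyond 800 bp. In replicate 1 these values were 216, 188 and 73.0 per Mb, and in replicate 3 they were 224, 170 and 95.2 per Mb. In 3′ UTRs the density was 394 per Mb within 25 bp and 485 per Mb at 200 to 400 bp in the pooled list. These values were 300 and 413 per Mb in replicate 1, and 305 and 411 per Mb in replicate 3. Beyond 800 bp the 3′ UTR density rested on few candidates. It was 640 per Mb in the pooled list (22 candidates), 466 in replicate 1 (16) and 320 in replicate 3 (11). Of the 7 distance classes, the one beyond 800 bp was the poorest in coding sequence in every list. Lower-case repeat masking covered 18.6% of the sequence at coding summits and 15.6% of all coding sequence, and 40.02% against 39.8% in 3′ UTRs.

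**Figure D4:**
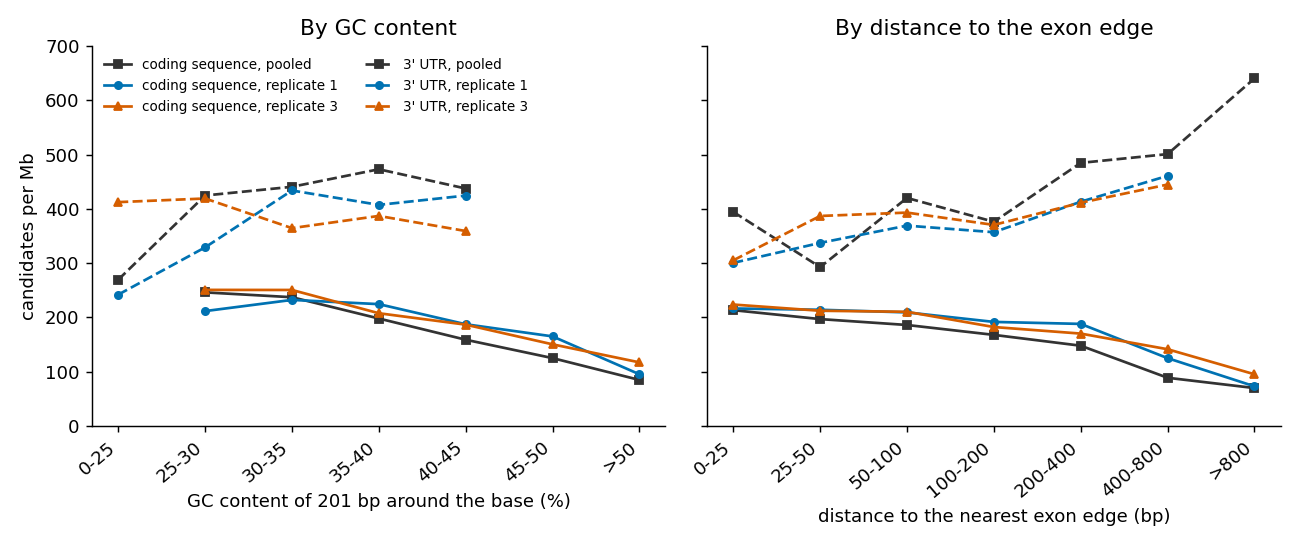
Candidates per Mb (y axis) of coding sequence (solid lines) and 3′ UTR (dashed lines), by the GC content around the base (left x axis) and by the distance to the nearest exon edge (right x axis), for each list. Classes with fewer than 20 candidates are not drawn. In the pooled list coding density falls from 213 to 69.8 per Mb with distance from the edge. There 3′ UTRs run from 293 to 640 per Mb, the latter on 22 candidates.

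Windows of 100 bp either side of the summit were searched for 7 short motifs on both strands, and compared with windows of the same length along all sequence of the class. AATAAA, the letters of the usual polyadenylation signal, or its reverse complement was in 57.6% of 3′ UTR members and in 60.3% of 3′ UTR windows. It was in 29.1% of coding members and 24.2% of coding windows. A run of 8 T or 8 A was in 10.8% of coding members and 8.18% of coding windows, and in 33.1% and 31.1% in 3′ UTRs. NGATAN, with A or T at its start and A or G at its end, the letters bound by GATA factors, was in 38.9% of coding members and 35.6% of coding windows. TTNGAA, with C or T at the N, was in 48.3% and 44.5%. The E2F-type TTNNCGC, with C or G at each N, was in fewer coding members than coding windows, 3.61% against 4.60%. GAGAGA was in 11.1% of coding members and 10.2% of coding windows, and CACGTG in 5.27% and 4.97%. In 3′ UTRs the shares of members and windows were 42.02% and 39.3% for NGATAN, 58.3% and 56.2% for TTNGAA, and 4.04% and 4.13% for TTNNCGC. They were 16.3% and 13.99% for GAGAGA and 3.48% and 2.93% for CACGTG. Coding summits have lower GC than coding sequence, and its part in these shares was not tested.

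The members were spread thinly over genes. They fell in 3043 of the 15632 autosomal protein-coding genes with exon sequence outside gene starts (19.5%), and 2505 genes held 1 member. Another 424 genes held 2, 89 held 3, 19 held 4 and 6 held 5 or more. By overlap, the 3689 members formed 3520 separate stretches, so 332 members touched another member. Within 1000 bp of a summit above the threshold lay 64 members (1.73%), against 2.01% of all autosomal candidates below the threshold. Exon density there was 322 per Mb, against 209 per Mb farther away. Around each library's own strongest regions it was 405 against 220 per Mb in replicate 1 and 403 against 220 in replicate 3. Without these 64 members and that sequence the pooled ratio of 3′ UTR to coding density was 2.36.

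The strongest members were in both kinds of exon. Of the 25 with the highest pooled signal among those listed in both libraries, 14 lay in coding sequence, 10 in 3′ UTRs and 1 in a 5′ UTR, and 17 were in the strongest 25% of both. The top member, in the 3′ UTR of adh-1 (chrV:11889370-11889745), named for alcohol dehydrogenase, had a pooled signal of 36.7, with 27.9 in replicate 1 and 8.30 in replicate 3. These were within the strongest 3.39% and 6.79% of the libraries' lists. F53B2.5 followed in coding sequence (chrIV:12528513-12528888) with 36.6, and 30.2 and 7.64 in the libraries. Both were strong in each library. Some other high members ranked lower in replicate 3. In C34F11.8 the pooled signal was 35.3, and the overlapping candidates ranked within 3.16% of replicate 1 and 87.2% of replicate 3. The coding member in pqm-1, a zinc-finger transcription factor of the stress response, had 33.9, and ranks within 2.40% of replicate 1 and 38.2% of replicate 3. In pde-2, a cyclic nucleotide phosphodiesterase, the pooled signal was 33.6 and the ranks were within 3.98% and 70.7%. Signals of separate lists are on scales of their own, so only their ranks were compared.

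Of the 178 members in the strongest 25% of both libraries, 81 lay in 3′ UTRs, and these are named here first. The 3′ UTR member of ztf-8, a zinc-finger gene (chrIII:5268567-5268942), had a pooled signal of 30.7, within the strongest 10.2% of replicate 1 and 0.607% of replicate 3. That of lgg-1, the worm's autophagosome ubiquitin-like protein (chrII:6346951-6347326), had 29.2 in the pooled list and ranked within 0.42% and 4.52%. In rab-11.1, a GTPase of recycling endosomes (chrI:108542-108917), the value was 28.7 with ranks within 1.67% and 0.853%. Other such 3′ UTR members lay in akt-1, a kinase of insulin signalling (30.6), in alh-4, an aldehyde dehydrogenase (29.4), and in csn-5, a subunit of the COP9 signalosome (28.8). The summits in rab-11.1, alh-4 and lgg-1 lay 507, 529 and 580 bp from the nearest annotated gene start, so their regions reach inside the gene start limit. Those in ztf-8, csn-5 and akt-1 lay 907, 1464 and 2265 bp away. Coding examples were coa-7, a cytochrome oxidase assembly factor, with 32.7 and ranks within 4.84% and 2.67%, and cah-1, of the carbonic anhydrase family, with 32.5 and ranks within 5.12% and 5.51%. An overlapping 3′ UTR member of coa-7 and ghi-1, with 31.3, took its ranks from the same library candidates as the coding member of coa-7. Both count among the 178, so their library support is not separate. The member in coding sequence of B0507.8 had the strongest overlapping candidate of replicate 3 among all members, within its top 0.217%, at a pooled signal of 19.4.

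The gene with most members was ret-1, the reticulon that shapes the endoplasmic reticulum, with 11. All 11 lay in coding sequence, over 8.85 kb of exon outside gene starts, with pooled signals from 10.5 to 33.6 and a median of 20.4. Both libraries supported 7 of them, and 5 were in the strongest 25% of both. Neighbouring members shared library candidates in these counts, as those with pooled signals of 33.6 and 10.5 did, and those with 28.8 and 25.9. By their own summits, replicate 1 had 10 exon candidates in ret-1 and replicate 3 had 8. Repeated summits in ret-1 were thus found in each library's own list. F26F12.3 had 6 members with signals from 21.3 to 29.95, of which 2 were in coding sequence, 2 in the 3′ UTR and 2 in the 5′ UTR. In mnk-1, a kinase of the MAP kinase pathway, 6 members ran from 8.44 to 17.9, and 4 of them were in the 3′ UTR. Those 4 shared replicate 1 candidates in neighbouring pairs. The others with 5 were pals-26 (10.5 to 23.4), ampd-1, AMP deaminase (8.31 to 21.6), and daf-2, the insulin receptor (8.14 to 10.5). In daf-2, 2 of the 5 were supported by both libraries and 20 further candidates lay in its introns. Of the genes with 4, F58D5.5 and bli-4, a proprotein convertase gene, had all of them in 3′ UTRs. The forkhead factor daf-16 had 4, of which 2 were in the 3′ UTR, with signals from 8.16 to 23.2.

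Exon density followed the state of the gene's own start. Genes with a thresholded region within 500 bp of a 5′ end held 299 members per Mb of exon (196 members in 518 genes). Those with a candidate below the threshold there held 260 per Mb, and those with none 164 per Mb (1608 members in 9321 genes). With each library's own regions, the values were 327, 274 and 176 per Mb in replicate 1. In replicate 3 they were 336, 257 and 187 per Mb. The order was the same in both libraries, and 1608 of the 3689 members were in genes with no candidate at the start. Among the autosomes, the pooled exon density ran from 191 per Mb on II to 236 per Mb on III. Chromosome V had the lowest 3′ UTR density, at 340 per Mb, and III the highest, at 482 per Mb. The outer 25% at each end of the autosomes held 41.9% of the members and 41.1% of the exon sequence outside gene starts.

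Gene groups were described by their density, beginning with groups below that of all exons. The intervals given cover counting error only and take members as independent, though neighbouring members can overlap and share library candidates. Giant structural proteins, such as titin-like and cadherin proteins of muscle and epithelium, held 13 members in 386 kb, or 33.7 per Mb (exact Poisson 95% interval 17.9 to 57.6), against 210 per Mb over all exons. Replicate 1 gave 57.0 and replicate 3 gave 67.4 per Mb, against 222 in each. The strongest of them was in the cadherin gene cdh-10, with a signal of 13.9. Cuticle collagens held 6 members, or 60.5 per Mb (22.2 to 132), with 50.4 and 121 per Mb in the libraries, and the highest was col-111 with 15.3. Neuronal genes held 10, or 75.9 per Mb (36.4 to 140), with 129 and 137 in the libraries, among them cha-1, choline acetyltransferase, at 12.2. Mean GC content was 52.3% in the collagen exons, 42.7% in those of the giant proteins and 39.0% in neuronal exons, against 39.2% for all exons. The share of exon sequence at least 200 bp from an exon edge was 45.9%, 55.1% and 28.1% in these groups, against 21.1% in all. The part of these values in the low densities was not tested. Lectins, lysozymes and antimicrobial peptides stood at 125 per Mb (81.4 to 182, with 139 and 163 in the libraries), with clec-140 at 32.7. The members named in cdh-10, col-111, cha-1 and clec-140 each overlapped a candidate of replicate 1 but none of replicate 3. Sperm genes held 2 members, at 64.98 per Mb (7.87 to 234.7), an interval that includes all exons.

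Above all exons, the 81 members in nuclear hormone receptor genes, which encode ligand-regulated transcription factors, gave 323 per Mb (257 to 402), with 303 in replicate 1 and 287 in replicate 3. They lay in 61 of 247 genes, and nhr-119 at 22.6 and nhr-41 at 21.7 were the strongest. Subunits of the proteasome and the vacuolar ATPase held 21 members, or 462 per Mb (286 to 707), with 330 and 374 in the libraries. These members lay in 13 of 47 genes, and 5 of them overlapped candidates of both libraries. The ATPase gene vha-11 at 24.7 and the proteasome gene rpt-2 at 18.9 were the strongest. Detoxification enzymes held 50 members at 276 per Mb (205 to 365), and 221 and 238 per Mb in the libraries, so in replicate 1 they did not exceed all exons at 222. Neuropeptide and insulin-like peptide genes held 9 members at 356 per Mb (163 to 676), with nlp-11 at 17.6. The intestinal genes listed held 12 members at 294 per Mb (152 to 513), with the cathepsin genes cpr-5 at 19.1 and cpr-9 at 15.6 among them. Chemoreceptors, the largest group, held 177 members in 167 of 1319 genes at 197 per Mb (169 to 228), and str-20 was the strongest at 34.3. F-box and MATH-BTB genes held 76 members, with an interval of 185 to 294 per Mb and with fbxc-49 at 29.8. The members named in nlp-11, cpr-9 and str-20 each overlapped a candidate of replicate 1 but none of replicate 3. The detoxification, neuropeptide, intestinal, chemoreceptor and F-box groups all had intervals that include the density of all exons.

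Heterochromatin and synMuv genes, the group to which hpl-2 and lin-35 are assigned, held 14 members in 13 of 41 genes, or 185 per Mb (101 to 311). The strongest were lin-56 at 18.5, in a 5′ UTR, and the E2F gene efl-1 at 18.1. Argonautes and small RNA factors held 20, at 211 per Mb (129 to 326), with wago-1 at 23.6, which no candidate of replicate 3 overlapped. Germline genes held 10, at 154 per Mb (73.6 to 282), led by syp-1 of the synaptonemal complex at 30.1. The density of all exons lay inside the interval of each of these 3 groups. Chaperones, translation factors, mitochondrial respiration, ribosomal proteins, actins with tubulins and myosins, RNA polymerase II with splicing, and basement membrane genes lay between 119.3 and 295 per Mb, with intervals that all include the density of all exons. Histone genes and vitellogenins held no member, in 0.335 kb and 4.64 kb of exon, where a count of 0 allows up to 8955 and 647 per Mb by the floor of 3 counts, and the exact Poisson 95% intervals reach 11012 and 795 per Mb.

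**Figure D5:**
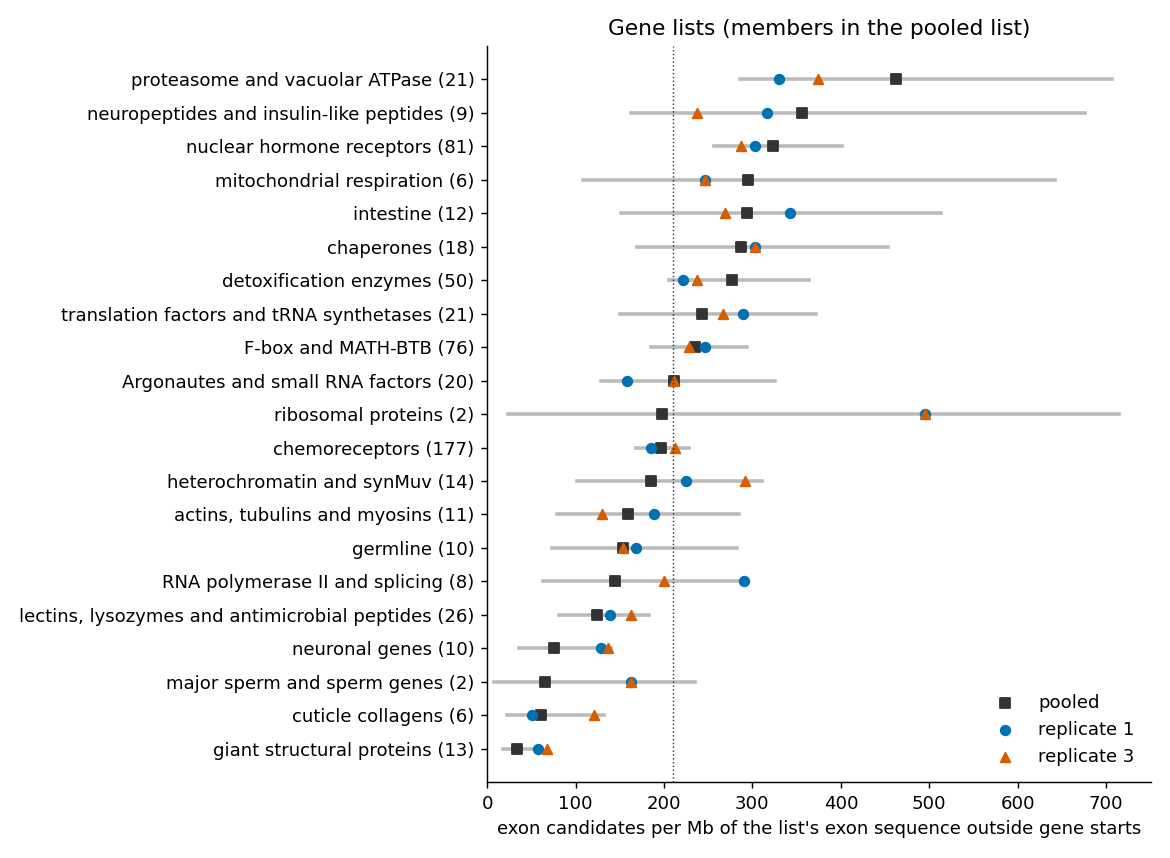
Exon candidates per Mb of exon sequence outside gene starts (x axis) for gene lists with at least 20 genes (y axis, number of members in brackets); grey bars are exact Poisson 95% intervals of the pooled value and the dotted line marks all exons at 210 per Mb. Giant structural proteins at 33.7 per Mb, collagens at 60.5 and neuronal genes at 75.9 lie to the left of the line in all lists, and nuclear hormone receptors at 323 to its right.

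The genes of the strain were looked at separately. No candidate of the pooled list or of either library had its summit in hpl-2, unc-119 or ges-1, and the nearest pooled candidates were 9213, 10292 and 12478 bp from these genes. In lin-35 there was 1 member, with a signal of 8.73, supported by replicate 1 only. At its 5′ end stood a thresholded region with a pooled signal of 60.6. The overlapping candidates had signals of 56.2 in replicate 1 and 3.16 in replicate 3. The latter value falls at ranks 12001 to 18000 of replicate 3, so this region was strong in replicate 1 only. Stronger exon summits within the bounds of lin-35, at 20.1 and 21.03, lie in exons of C32F10.4, an annotated gene that overlaps them. How the array's copies were handled in the alignment or by the control was not tested.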

How the data were processed

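Candidate lists of 2 ChIP-seq libraries and of both pooled were deposited by the authors on ce11. Each holds, per region, a signal, the caller's enrichment value, and the −log10 of a q-value, as deposited by the authors. Per the file listings, they fed the authors' test of agreement between replicates (IDR) and drew on 1 control file. How reads were aligned, which caller was used and how the test was set is not stated in the labels or headers. The thresholded list is exactly the strongest 857 pooled regions by signal. The ce10 lists were not used.

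Summits were placed on Ensembl release 115 (WBcel235, the ce11 sequence). A base counted as coding if any protein-coding transcript has it so, then as 3′ UTR, 5′ UTR or other exon. Densities divide summits by all autosomal bases of that class outside gene starts. Base composition was taken from 100 bp either side of the summit. Named genes were the 25 strongest members listed in both libraries, the 10 genes with most members, up to 4 per gene list, the strain's genes and those beside the threshold. Members named for a high rank in 1 library, and daf-16 and bli-4, were chosen after their values were seen. The members and lists were chosen with earlier results of these data known. The labels call the libraries biological replicates, and only they were treated as replicates. The classification was tested on simulated summits. Python 3.11.15, numpy 2.4.6, scipy 1.17.1, pandas 2.3.3 and matplotlib 3.10.9 were used. Alternatives were each library alone, other gene start limits, overlaps, windows and chromosome ends, the upper ranks, coding sequence alone and exons free of introns.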

Additional observations from a re-analysis of the deposited data

How the results depend on the processing

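With 2 libraries, the depth unknown and no read counts, values were compared with the difference between the libraries, and a value was counted as moved when it changed by more than their SD, or, for the number of members, by more than 1.5 times. No paired analysis was possible because there is 1 group. The alternatives for the ratio of 3′ UTR to coding density were chosen after seeing the data.

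From each library's own list, the number of exon candidates ran from 3899 to 3906, the coding share from 77.0 to 77.5% (73.6% pooled), the share listed in the other library from 27.9 to 27.98%, and the density was 222 per Mb (210 pooled). Mean GC ran from 37.5 to 37.8%, masking from 22.1 to 23.3%, the share on distal parts from 40.3 to 41.4%, the median rank from 55.7 to 56.7%, and the ratio from 1.91 to 1.96 (2.38 pooled).

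With gene starts limited to 250 bp, there were 4385 members, the share in both libraries was 30.2%, the density 212 per Mb and the ratio 2.30. With 1000 bp, there were 2530 members, the coding share was 73.2%, the share in both libraries 28.3%, the distal share 43.6%, the density 207 per Mb and the ratio 2.44. Among the stronger ranks up to the middle of the pooled list there were 1564 members, 69.9% coding, 47.2% in both libraries, 39.5% distal, at 89.1 per Mb, with a median rank of 29.6% and a ratio of 2.84. Fewer candidates by construction set the number, the density and the rank there. With coding sequence only, the share in both libraries was 25.9%, mean GC 38.6%, masking 18.6%, the density 179 per Mb and the median rank 58.2%, and no coding share or ratio exists by construction. Without exons that overlap an intron, the coding share was 75.2%, the share in both libraries 28.7% and the density 209 per Mb.

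Requiring an overlap of 50% of the region gave 17.6% in both libraries. Windows of 50 bp gave a mean GC of 37.7% and masking of 22.02%, and windows of 200 bp gave 36.5 and 27.1%. Taking the outer 30% of each autosome end gave 51.6% distal. The ratio was 3.49 among members in both libraries and 5.09 among those with a q-value of at most 0.05. The q-value comes from the contrast that chose the members, and nothing was read from the last value. Apart from what the construction sets, the cause of these shifts was not tested. Under the alternatives other than the q-value, the ratio ran from 1.91 to 3.49.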

Other observations

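Exon candidates on X, which the members exclude, numbered 714 below the threshold. A candidate in both libraries overlapped 31.4% of them and 29.1% of the autosomal members, and their median pooled signals were 10.9 and 10.8. The strongest exon region above the threshold lay in a 5′ UTR of C34C12.2 on chromosome III, with a signal of 192 at rank 8, within the top 0.0367% of replicate 1 and 0.05% of replicate 3.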
